A study of Sus scrofa with 6 samples.

Results

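The messenger RNAs of 9 genes that control the poly(A) tails and the storage of maternal mRNA were followed in porcine oocytes: CPEB1, CPEB2, CPEB3, CPEB4, PABPC1, PABPC1L, PABPC4, PABPN1L and ZFP36L2. They were taken by name from a table of 29861 genes, and all 9 were found in it. The samples were 2 of control oocytes, 2 of heat-stressed (HS) oocytes and 2 of heat-stressed oocytes given nicotinamide mononucleotide (HS + NMN), a precursor of the coenzyme NAD. The question put by the study was whether NMN counters what heat does to oocytes. The strain, animals and ages behind the samples are not given in the sources used here. Oocytes came from abattoir ovaries and were matured in vitro within their cumulus cells, each sample held many oocytes, and neither the labels nor the methods say whether the 2 samples of a group came from separate collections, so that P-values measure only the spread between these samples, which may be technical. The labels place all 6 samples at the germinal vesicle (GV) stage and 24 h, whereas the methods give metaphase II, and the stage is therefore left undecided here. Control oocytes had neither heat nor NMN, and no NMN group without heat was analysed here.

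A growing oocyte stores mRNA with short tails and lengthens them in the cytoplasm as meiosis resumes, when transcription is silent. CPEB proteins bind a U-rich cytoplasmic polyadenylation element (CPE) in the 3′ untranslated region (3′ UTR) and switch these mRNAs from repression to tail extension, with CPEB1 acting first and CPEB4 later in meiosis. Cytoplasmic poly(A)-binding proteins (PABPC1, its oocyte form PABPC1L and PABPC4) coat the tail and favour translation, PABPN1L is an embryonic nuclear-type poly(A)-binding protein active in clearing maternal mRNA, and ZFP36L2 binds AU-rich elements and recruits deadenylation. The measurement was of mRNA only, and tail length and protein were not measured.

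Later results refer to which 3′ UTRs hold these elements, so the last match of a motif in the members is printed first, for those where a stretch is shown. The motifs searched on the mRNA strand were TTTTAT or TTTTAAT for the CPE, TATTTAT for the AU-rich core, and AATAAA or ATTAAA for the polyadenylation hexamer, and matches of different motifs may overlap. Of 4034 tested genes with an annotated 3′ UTR, 71.8% held a CPE, 25.6% held one starting in the last 100 nt and 33.1% held an AU-rich core. The sequences are those of the NCBI annotation of Sscrofa11.1, each with 30 bases and the motif in capitals, and a match describes letters and not a bound site.
PABPC4, CPE, chr6:95382332-95382361, minus strand: ccccaaattggTTTTATttgatgtacccaa
ZFP36L2, CPE, chr3:97202950-97202979, plus strand: tttattattatTTTTATtattattacgaag
CPEB3, CPE, chr14:103675386-103675415, minus strand: gaataaattaaTTTTATgatgctaattctt
CPEB4, CPE, chr16:50430544-50430573, minus strand: ggtaattcattTTTTATtaaagtcattttc
CPEB4, AU-rich core, chr16:50430401-50430430, minus strand: ttgcaaatgacTATTTATaccagtatgcat
PABPC1, CPE, chr4:36227870-36227899, plus strand: acaaattaatgTTTTATagaccctgggaaa

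The members differed widely in these elements. CPEB2 had 26 CPE matches in a 3′ UTR of 3796 nt, CPEB4 had 18 in 4195 nt and CPEB3 had 6 in 3572 nt. ZFP36L2 had 2 in 373 nt, PABPC1 and PABPC4 had 1 each, and PABPC1L and PABPN1L had 0. Per kilobase of 3′ UTR, CPEB2 stood at the 97.3 percentile of tested genes, ZFP36L2 at the 94.99 percentile and CPEB4 at the 90.2 percentile. CPEB3 stood at the 54.98 percentile, so a high density was not common to the CPEB genes searched. PABPC4 stood at the 80.49 percentile and PABPC1 at the 66.61 percentile, with 1 match each. The rank of ZFP36L2 rests on its 2 matches, which lie close together, 146 and 134 nt before the end. PABPC4 was the 1 member with a CPE in the last 100 nt, 56 nt before the end and upstream of a hexamer at 26 nt. PABPC1L and ZFP36L2 held no hexamer in the last 50 nt, so whether their annotated ends are the ones used is not known. An AU-rich core was found in CPEB2, CPEB3 and CPEB4. In the same build the 4 CPEB genes lie on chromosomes 7 (CPEB1, 52329054 to 52382408, plus strand, 11 exons), 8 (CPEB2, 10401350 to 10472141, plus, 12 exons), 14 (CPEB3, 103675164 to 103871245, minus, 12 exons) and 16 (CPEB4, minus, 10 exons). PABPC1 lies on chromosome 4 (36137644 to 36228075, plus, 16 exons), PABPC1L on chromosome 17 (47321259 to 47351905, plus, 15 exons), and PABPC4 and PABPN1L on chromosome 6 (95382295 to 95399452, minus, 16 exons, and 854605 to 861969, plus, 7 exons). ZFP36L2 lies on chromosome 3 (97200395 to 97203094, plus, 2 exons). The annotated CPEB1 model holds its coding sequence only, so its 3′ UTR was not searched.

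**Figure D1:**
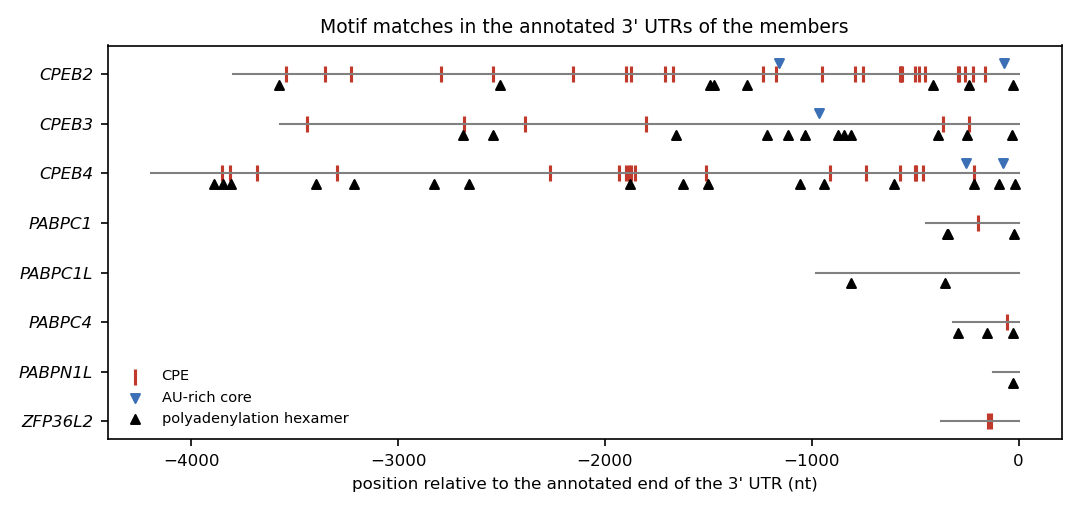
Each line is the annotated 3′ UTR of a member, drawn to scale, with position in nt relative to its end on the horizontal axis, bars for CPE matches, downward triangles for AU-rich cores and upward triangles for polyadenylation hexamers. The 3 long 3′ UTRs of CPEB2, CPEB3 and CPEB4 hold 26, 6 and 18 CPE matches, and in PABPC4 the single match lies 56 nt before the end.

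Levels are given as FPKM, in which fragments are scaled by transcript length and by the yield of the library, so that genes can be compared per length. The labelled cell type held, since 13 of 15 oocyte markers in the table had a mean FPKM of at least 1, against 2 of 19 cumulus and granulosa cell markers and 0 of 7 blood and immune markers. The 2 cumulus and granulosa markers were INHBA and GREM1, and 4 of the 19 (INHA, AMH, KRT18 and AMHR2) were listed at 0 in every sample. From 61.7% to 74.7% of each sample's FPKM came from the 13 mitochondrially encoded genes, and 1 pseudogene, LOC100513953, took 13.9% of HS replicate 1 and was listed at 0 in the other samples. Fewer cells of a type and less RNA per cell cannot be told apart in such samples. Read counts were not used, the depth is unknown.

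PABPN1L, ZFP36L2 and PABPC4 were the abundant members, and the 4 CPEB genes, PABPC1L and PABPC1 were scarce. Over the 6 samples the mean FPKM was 14.4 for PABPN1L, 9.14 for ZFP36L2, 7.64 for PABPC4, 1.01 for CPEB4, 0.713 for PABPC1L, 0.580 for CPEB2, 0.463 for CPEB1, 0.192 for CPEB3 and 0.140 for PABPC1. PABPN1L ranked 681 among the 20552 genes with any signal and PABPC1, the main cytoplasmic poly(A)-binding protein of somatic cells, ranked 10503. PABPN1L lay above every other member in each sample, and PABPC4 lay above CPEB4 in each sample. ZFP36L2 and PABPC4 exchanged places, with ZFP36L2 higher in the 4 control and HS samples and PABPC4 higher in both HS + NMN samples. The lower neighbours CPEB4, PABPC1L, CPEB2 and CPEB1 overlapped one another across the samples.

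**Figure D2:**
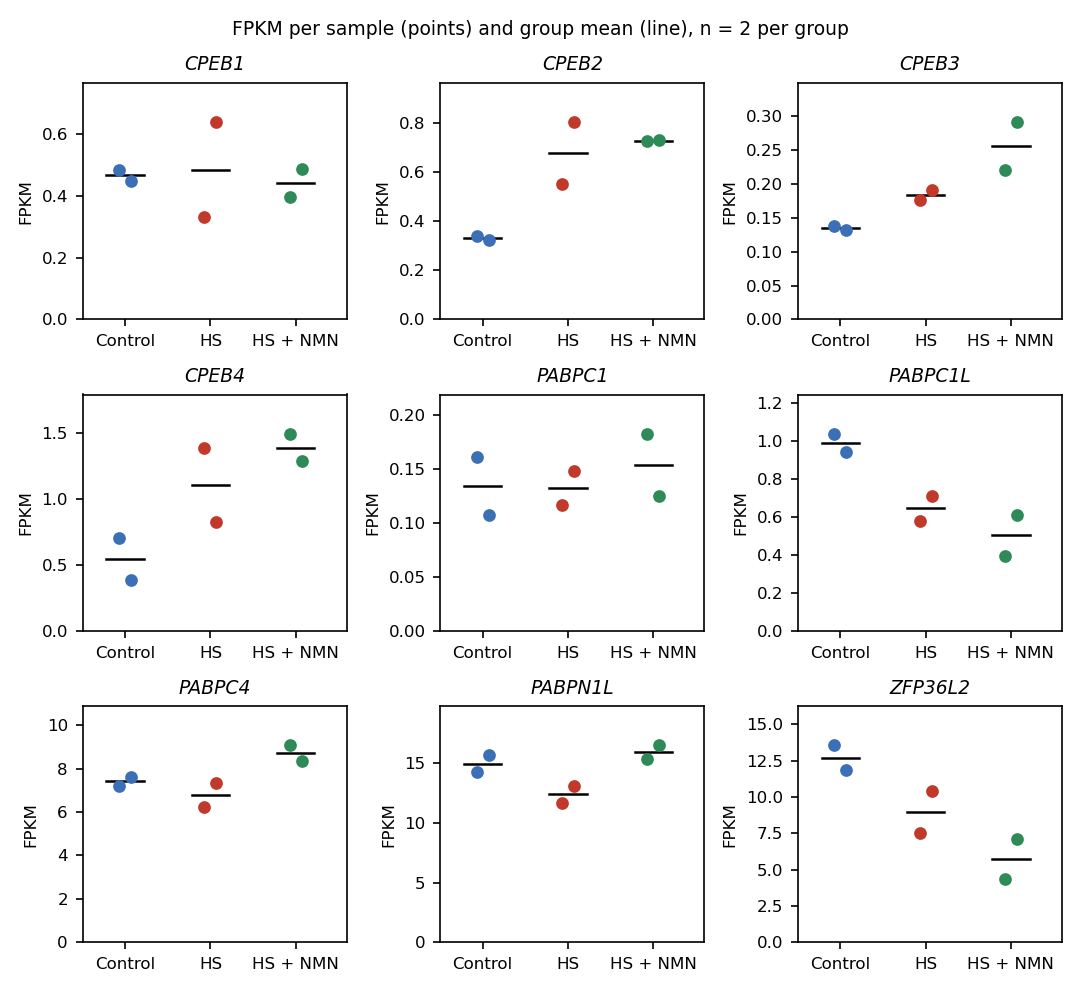
FPKM of each member (vertical axis, from 0) in the 2 samples of each group (points) with the group mean (line). ZFP36L2 and PABPC1L lie highest in control, CPEB2, CPEB3 and CPEB4 lie lowest in control, and PABPC4 and PABPN1L lie highest in HS + NMN by their means.

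Differences were tested with limma on log2(FPKM + 1) in 1 fit of the 3 groups, which makes the fold changes of scarce genes smaller than their FPKM ratios. The main fit held the 4713 genes whose FPKM averaged 1 or more, and 4 members passed this filter: CPEB4, PABPC4, PABPN1L and ZFP36L2. CPEB4 passed only through the heated groups, since its control mean was 0.547. The other 5 members were fitted in a wider set of 11651 genes averaging 0.1 FPKM or more. A gene is called here at an unadjusted P under 0.05, with the Benjamini-Hochberg adjusted P over all genes of its fit beside it. An exact permutation test of 2 samples against 2 cannot give a two-sided P below 0.333 and was not used. The HS + NMN group shares samples with both comparisons it enters, as do the other groups, so the comparisons are not independent of each other.

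Among the CPEB proteins, CPEB1, which holds mRNAs silent until meiosis resumes and then promotes their polyadenylation, showed no called difference. Its FPKM was 0.483 and 0.448 in control, 0.332 and 0.637 in HS, and 0.395 and 0.486 in HS + NMN oocytes. The groups overlapped, and the log2 difference was 0.01 for HS minus control (95% interval -0.31 to 0.33) and -0.03 for HS + NMN minus control (-0.34 to 0.29). With 2 samples a group, a difference within these intervals remains possible.

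CPEB2, a CPEB family member that also restrains translation elongation, was higher in all 4 heated samples than in control. Its FPKM was 0.339 and 0.325 in control, 0.552 and 0.804 in HS, and 0.729 and 0.732 in HS + NMN oocytes. The HS and control samples did not overlap, nor did HS + NMN and control, while HS and HS + NMN overlapped. In the wider limma fit CPEB2 rose by 0.33 ± 0.10 on the log2 scale (SE, n = 2 per group) from control to HS (adjusted P = 0.265). It rose by 0.38 ± 0.10 from control to HS + NMN (adjusted P = 0.103). Neither passed after adjustment. The call of HS against control was lost when any sample but HS replicate 1 was left out, with differences of 0.34 without control replicate 1, 0.32 without control replicate 2, 0.22 without HS replicate 2 and 0.33 without either HS + NMN sample. It was also lost with samples scaled to the FPKM sum without mitochondrially encoded genes (0.24), with LOC100513953 left out of that sum too (0.32), and with only the compared groups in the fit. That of HS + NMN against control was lost without control replicate 1 (0.38), control replicate 2 (0.37), HS + NMN replicate 1 (0.38) or HS + NMN replicate 2 (0.38), and under the first of these scalings (0.41). A pseudocount of 0.1 in place of 1 FPKM raised these differences to 0.83 and 0.94.

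CPEB3, which in neurons links mRNA repression to synaptic activity, was the scarcest CPEB gene. Its FPKM was 0.138 and 0.133 in control, 0.176 and 0.191 in HS, and 0.221 and 0.291 in HS + NMN oocytes. No pair of groups overlapped, and the order was control, HS and HS + NMN, but no difference was called as deposited. The largest, between HS + NMN and control, was 0.15 ± 0.06 on the log2 scale (adjusted P = 0.195 by limma), and it became 0.59 with a pseudocount of 0.1 FPKM. It was called with quantile normalization (0.22), with samples scaled to the same median FPKM (0.19) and without HS + NMN replicate 1 (0.19).

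CPEB4, which takes over polyadenylation in late meiosis, was the CPEB gene with the highest mean. Its FPKM was 0.706 and 0.387 in control, 1.38 and 0.828 in HS, and 1.49 and 1.28 in HS + NMN oocytes. All 4 heated samples lay above both control samples, and HS replicate 2 lay close to control replicate 1. By limma CPEB4 rose by 0.63 ± 0.19 on the log2 scale from control to HS + NMN (adjusted P = 0.0638). Between HS and control the difference was 0.44 ± 0.19 (adjusted P = 0.236), and between HS + NMN and HS it was 0.19 ± 0.19 (adjusted P = 0.610). The call for HS + NMN against control was lost without control replicate 2 (difference 0.48) or HS + NMN replicate 1 (0.57), whereas HS against control was called without HS replicate 2 (0.63). The same HS difference was 0.25 without HS replicate 1, 0.29 without control replicate 2 and 0.26 with samples scaled to the FPKM sum without mitochondrially encoded genes, and that between HS + NMN and HS was 0.001 without HS replicate 2 and 0.38 without HS replicate 1, none called.

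The CPEB4 value is uncertain because its locus on chromosome 16 (50430345 to 50499086, minus strand) is listed together with 2 other genes. LOC102164640, a long noncoding RNA on the opposite strand, shares 697 exonic bases with CPEB4, and LOC110257261, a coding gene on the same strand, shares 993. The library kit is not stated to keep strand, so fragments of the shared stretches cannot be told apart. LOC102164640 stood at 3.34 and 3.86 FPKM in control, 5.84 and 5.95 in HS, and 6.91 and 7.56 in HS + NMN oocytes. LOC110257261 stood at 4.69 and 2.19, 4.34 and 7.18, and 11.4 and 8.68. Both were more abundant than CPEB4 in every sample and, like it, highest by group mean in HS + NMN, and their part in the CPEB4 values was not tested. No other member shared exonic bases with a gene of its listed locus, and no member transcript had a copy of at least 150 bases at 95% identity elsewhere in the genome.

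Within each sample, the summed FPKM of the 4 CPEB genes was 1.67 and 1.29 in control, 2.44 and 2.46 in HS, and 2.84 and 2.79 in HS + NMN oocytes. The 3 groups did not overlap, in that order. The share of CPEB1 in this sum is not altered by multiplying all values of a sample by a common factor. This share was 29.0% and 34.6% in control, 13.6% and 25.9% in HS, and 13.9% and 17.4% in HS + NMN oocytes. CPEB1 thus made up less of the CPEB mRNA in each heated sample than in either control sample, while its own level overlapped. CPEB4, whose value is uncertain because of the genes sharing its exonic bases, made up from 29.96% to 56.6% of the sum. The sum and the CPEB1 share carry that uncertainty. With 2 samples a group, these shares are a description.

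Of the cytoplasmic poly(A)-binding proteins, PABPC4 held most of the mRNA in every sample. PABPC4 stood at 7.22 and 7.60 FPKM in control, 6.24 and 7.34 in HS, and 9.06 and 8.35 in HS + NMN oocytes. Both HS + NMN samples lay above the other 4, and HS and control overlapped. By limma PABPC4 rose by 0.32 ± 0.12 on the log2 scale from HS to HS + NMN (adjusted P = 0.360), a ratio of mean FPKM of 1.28. Its difference was -0.11 ± 0.12 for HS minus control and 0.21 ± 0.12 for HS + NMN minus control (adjusted P = 0.258), neither called.

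The PABPC4 call was close to the threshold. It was lost without control replicate 1 (difference 0.32), control replicate 2 (0.32), HS replicate 1 (0.22), HS + NMN replicate 1 (0.27) or HS + NMN replicate 2 (0.37). The call was lost in 12 of 18 alternatives, and the direction was the same in all 18, from 0.22 to 0.65.

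PABPC1L, the oocyte form of cytoplasmic poly(A)-binding protein that is needed for female fertility in mice, was highest in control. Its FPKM was 1.04 and 0.944 in control, 0.580 and 0.709 in HS, and 0.395 and 0.611 in HS + NMN oocytes. All 4 heated samples lay below both control samples, and HS and HS + NMN overlapped. In the wider limma fit PABPC1L fell by 0.41 on the log2 scale from control to HS + NMN (SE 0.11, adjusted P = 0.103), and its difference between HS and control was -0.28 ± 0.11 (adjusted P = 0.329). The call for HS + NMN was lost without control replicate 1 (difference -0.37) or HS + NMN replicate 1 (-0.30), and with samples scaled to the same median FPKM (-0.30) or to the FPKM sum without mitochondrially encoded genes (-0.42). A pseudocount of 0.1 FPKM made the difference between HS + NMN and control -0.88.

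PABPC1 was near the lower limit of the wider fit. Its FPKM was 0.161 and 0.107 in control, 0.117 and 0.149 in HS, and 0.183 and 0.125 in HS + NMN oocytes. All groups overlapped and no difference was called, the 95% interval for HS + NMN minus control being -0.13 to 0.18 on the log2 scale.

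The makeup of the cytoplasmic poly(A)-binding family was ordered by group. PABPC1L made up 12.3% and 10.9% of the FPKM of the 3 genes in control, 8.36% and 8.65% in HS, and 4.09% and 6.73% in HS + NMN oocytes. PABPC4 made up 85.8% and 87.9%, 90.0% and 89.5%, and 94.0% and 91.9%. For both genes the 3 groups did not overlap. Since PABPC1 made up at most 1.92% in any sample, the PABPC4 share is nearly the remainder of the PABPC1L share. The 2 orders are therefore not separate observations. They describe 2 samples a group, and how often other gene families are ordered in this way was not counted. The coding sequences of PABPC1L and PABPC4 are 72.4% identical, with a longest shared run of 29 bases.

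**Figure D3:**
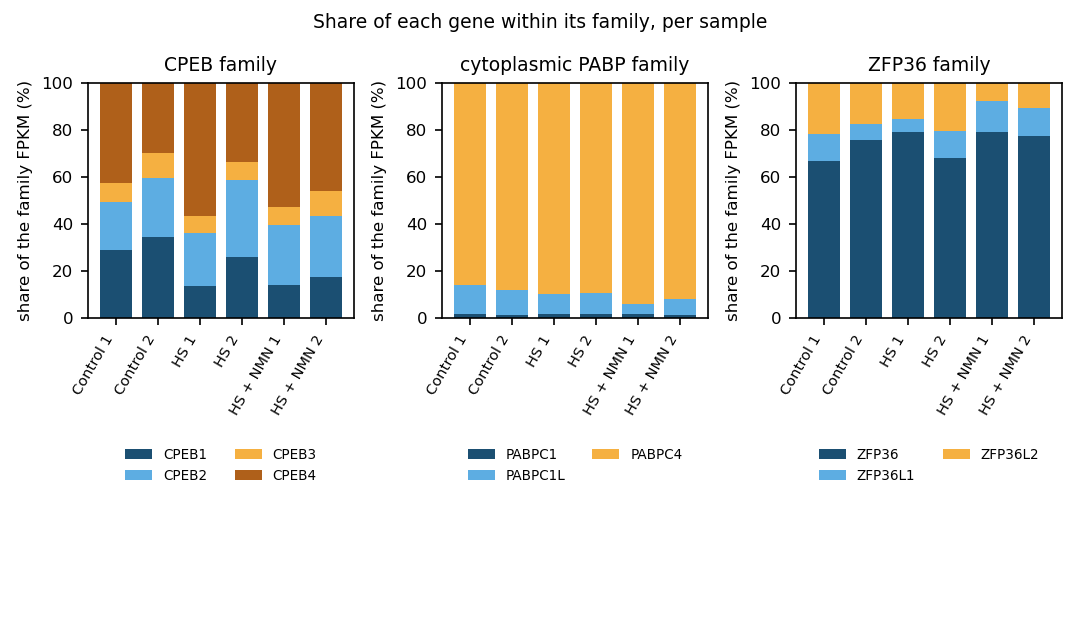
Stacked bars give the percentage of the summed FPKM of the CPEB, cytoplasmic PABP and ZFP36 families held by each gene in each of the 6 samples, with the vertical axis from 0 to 100%. The share of PABPC1L is 12.3% and 10.9% in control and 4.09% and 6.73% in HS + NMN, and that of ZFP36L2 is lowest in the 2 HS + NMN samples.

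PABPN1L, the nuclear-type poly(A)-binding protein of oocytes and early embryos, was the most abundant member. Its FPKM was 14.2 and 15.6 in control, 11.7 and 13.1 in HS, and 15.3 and 16.4 in HS + NMN oocytes. Both HS samples lay below the other 4, and control and HS + NMN overlapped. By limma PABPN1L rose by 0.34 ± 0.12 on the log2 scale from HS to HS + NMN (adjusted P = 0.352), and the difference between HS and control was -0.25 ± 0.12 (adjusted P = 0.270). HS + NMN differed from control by 0.09 ± 0.12 (95% interval -0.21 to 0.38). The call between HS + NMN and HS was lost without HS replicate 1 (difference 0.26), HS + NMN replicate 1 (0.39) or HS + NMN replicate 2 (0.29), with quantile normalization (0.26), and with samples scaled to the FPKM sum without mitochondrially encoded genes (0.69) or without these and LOC100513953 (0.39).

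ZFP36L2, which shortens the tails of AU-rich mRNAs and is needed in mouse oocytes for transcriptional silencing, showed the largest fitted difference of any member on the log2(FPKM + 1) scale, although by the ratio of mean FPKM in HS + NMN over control CPEB4 (2.54) lay further from 1 than ZFP36L2 (0.451). Its FPKM was 13.6 and 11.9 in control, 7.53 and 10.4 in HS, and 4.36 and 7.11 in HS + NMN oocytes. The 3 groups did not overlap, in the order control, HS and HS + NMN. By limma ZFP36L2 fell by 1.05 on the log2 scale from control to HS + NMN (SE 0.25, adjusted P = 0.0389). The single steps were not called, with differences of -0.47 ± 0.25 between HS and control (adjusted P = 0.303) and -0.58 ± 0.25 between HS + NMN and HS (adjusted P = 0.375). The second step was called without HS replicate 1 (difference -0.79) or HS + NMN replicate 2 (-0.88), and it was not called and stood at -0.37 without HS replicate 2, -0.28 without HS + NMN replicate 1 and -0.25 with samples scaled to the FPKM sum without mitochondrially encoded genes. The first step was -0.27 without HS replicate 1 and -0.79 under that scaling, and was called in neither. The whole difference was called in each of 18 alternatives, from -1.35 to -0.76.

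Its relatives did not share this order. ZFP36, the most abundant of the family, stood at 41.8 and 51.8 FPKM in control, 39.5 and 34.2 in HS, and 44.0 and 51.6 in HS + NMN oocytes, and ZFP36L1 stood at 7.29 and 4.74, 2.80 and 5.78, and 7.34 and 7.79. Neither was called in any of the 3 comparisons. The share of ZFP36L2 in the family FPKM was 21.6% and 17.4% in control, 15.1% and 20.6% in HS, and 7.82% and 10.7% in HS + NMN oocytes, so that both HS + NMN samples lay below the other 4. The cumulus and granulosa marker list, whose summed FPKM was 19.8 and 15.7 in control, 14.0 and 11.05 in HS, and 9.11 and 14.98 in HS + NMN oocytes, was also highest in control. INHBA, its most abundant gene, was highest in control too, at 16.4 and 13.2 FPKM in control, 10.2 and 6.44 in HS, and 4.35 and 10.2 in HS + NMN oocytes, while GREM1 was lowest in control, at 2.48 and 1.73, 3.27 and 2.87, and 3.58 and 3.55. Without these 2 the list summed to 0.976 and 0.763 FPKM in control and 0.557 and 1.74 in HS oocytes. In HS + NMN oocytes it summed to 1.19 and 1.22, so this remainder was not highest in control. The part of this marker list in the ZFP36L2 and PABPC1L values was not tested. The order of ZFP36L2 was not particular to it. Among the oocyte markers, ZP3, GDF9, ZAR1 and NPM2 also fell from control to HS to HS + NMN without overlap. GDF9 stood at 732 and 777 FPKM in control, 477 and 532 in HS, and 435 and 353 in HS + NMN. BMP15, DPPA3, KPNA7 and KIT were instead lowest in control, and the other oocyte markers showed neither order.

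The counts of members called were small and have to be read against the genes called in the whole table. Between HS and control, 0 of the 4 members of the main fit were called by limma where 22.8% of all 4713 genes were, and no gene had an adjusted P under 0.05. Between HS + NMN and HS, 2 of 4 were called, both higher (PABPC4 and PABPN1L), beside 13.6% of all genes and 7.15% higher, and again no gene passed after adjustment, with 641 genes at an unadjusted P under 0.05. Between HS + NMN and control, 2 of 4 were called (CPEB4 higher, ZFP36L2 lower) beside 41.3% of all genes (25.6% higher and 15.7% lower), and 1 of 4 passed after adjustment beside 21.5%. CPEB4 passed the filter of this fit only through the heated groups, which favours a call in that direction. It was also called in the wider fit. In the wider fit of 9 members, 1, 2 and 4 were called in the same order of comparisons, beside 16.0%, 9.96% and 27.8% of 11651 genes, and none passed after adjustment, where 0.738% of genes did so between HS + NMN and control. The groups of 6, 4 and 6 of the 9 members did not overlap, beside 47.1%, 44.8% and 60.6% of genes. These shares rest on few members and do not set them apart from the table. The median log2 difference of the 9 members was -0.002, 0.05 and 0.09, beside -0.002, 0 and -0.01 for all genes of the wider fit.

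**Figure D4:**
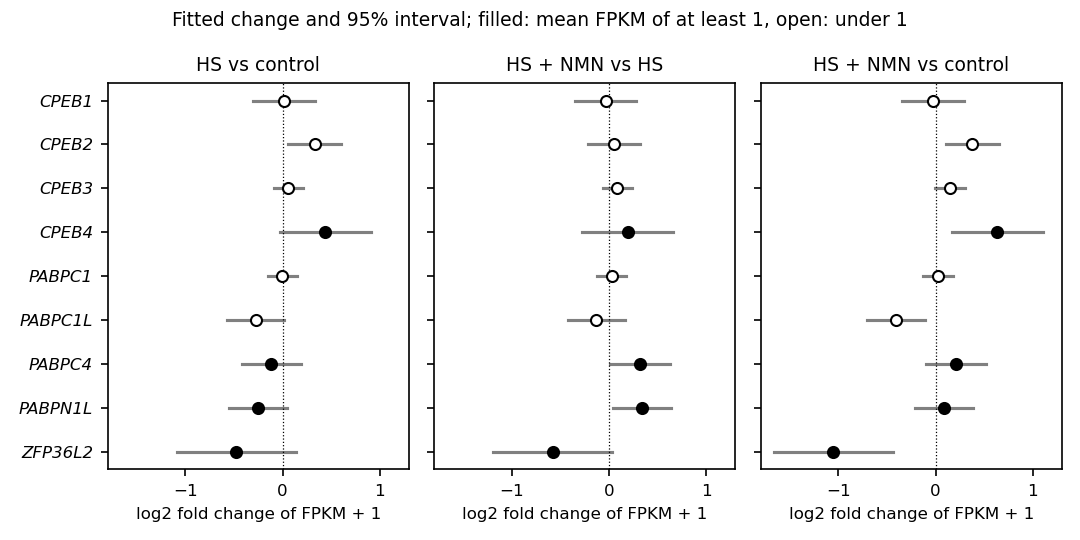
Points are the fitted log2 differences of FPKM + 1 (horizontal axis) for each member and comparison, with 95% intervals as bars, filled where the mean FPKM is at least 1 and open where it is lower. The interval of ZFP36L2 in HS + NMN against control, -1.67 to -0.44, lies furthest from 0.

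The machinery around the members was read from 4 gene lists, whose counts stand beside 12.7% of tested genes called higher and 10.1% lower between HS and control, 7.15% and 6.45% between HS + NMN and HS, and 25.6% and 15.7% between HS + NMN and control. Of the cytoplasmic polyadenylation factors and the repressors that CPEB works with, 20 of 24 were in the table, 8 were tested, and 0 were called in any of the 3 comparisons. They included EIF4E1B, the oocyte cap-binding protein, at 58.1 and 66.6 FPKM in control, 53.7 and 50.9 in HS, and 55.8 and 62.0 in HS + NMN oocytes. The cytoplasmic poly(A) polymerase, listed as PAPD4, had a mean of 0.795 FPKM and was not tested in the main fit. The list's median log2 difference was 0.01, 0.05 and 0.07 for the 3 comparisons, beside 0.05, 0.08 and 0.11 for all tested genes.

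Among proteins that bind or trim the poly(A) tail or partner with PABP, 12 of 18 were tested. None were called between HS and control, 1 was higher between HS + NMN and HS, and 5 were higher and 0 lower between HS + NMN and control. PAN3, a subunit of the PAN2-PAN3 deadenylase that PABP recruits, stood at 2.14 and 1.88 FPKM in control, 2.496 and 2.58 in HS, and 3.56 and 3.31 in HS + NMN oocytes. It rose by 0.56 ± 0.11 on the log2 scale from control to HS + NMN (adjusted P = 0.0307) and by 0.33 ± 0.11 from HS to HS + NMN (adjusted P = 0.352) by limma. ZC3H14, a nuclear poly(A)-binding zinc finger protein, rose by 0.51 ± 0.11 (adjusted P = 0.0361) and LARP4B, a PABP partner that favours mRNA stability, by 0.41 ± 0.12 (adjusted P = 0.0637) from control to HS + NMN.

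Other proteins that bind 3′ UTRs followed a like count, with 12 of 21 tested. Between HS and control and between HS + NMN and HS, 1 was higher and 0 lower in each. From control to HS + NMN 4 were higher and 0 lower, of which 2 passed after adjustment. Among the 4, PUM2 passed the filter only through the heated groups, at 0.826 and 0.762 FPKM in control, which favours a call in that direction. ELAVL2, an oocyte-rich protein that binds AU-rich elements, stood at 1.15 and 1.22 FPKM in control, 1.62 and 1.90 in HS, and 2.01 and 2.10 in HS + NMN oocytes. By limma it rose from control both to HS (0.34 ± 0.12, adjusted P = 0.191) and to HS + NMN (0.48 ± 0.12, adjusted P = 0.0427). KHSRP, which promotes decay of AU-rich mRNAs, was higher in both HS + NMN samples, at 29.0 and 31.2 FPKM, than in the other 4, which ranged from 19.99 to 23.0. By limma it rose by 0.43 ± 0.12 from HS (adjusted P = 0.300) and by 0.48 ± 0.12 from control (adjusted P = 0.0466). TIAL1, a translational repressor, rose from control to HS + NMN by 0.42 ± 0.16 (adjusted P = 0.105).

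The fourth list held mRNAs known as targets of CPEB or of polyadenylation in maturing oocytes, of which 12 of 14 were tested. Between HS and control 4 were higher and 1 lower, between HS + NMN and HS 1 was higher and 1 lower, and between HS + NMN and control 5 were higher and 2 lower, 5 of the 7 with an adjusted P under 0.05. The median log2 difference of the list in the last comparison was 0.28, beside 0.11 for all tested genes.

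AURKA, a mitotic and meiotic spindle kinase that is also reported to phosphorylate CPEB1, was the main exception to the upward direction. Its FPKM was 31.6 and 39.1 in control, 18.7 and 17.0 in HS, and 9.75 and 11.4 in HS + NMN oocytes, and the 3 groups did not overlap. By limma it fell by 0.94 from control to HS (adjusted P = 0.111), by 0.71 from HS to HS + NMN (adjusted P = 0.222) and by 1.65 from control to HS + NMN (adjusted P = 0.0197). Its annotated 3′ UTR of 671 nt held 0 CPE matches. It also held no polyadenylation hexamer, so whether the annotated end is the one used is not known.

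WEE2, the oocyte kinase that keeps CDK1 inhibited, moved the other way. Its FPKM was 157 and 134 in control, 201 and 198 in HS, and 251 and 249 in HS + NMN oocytes. By limma it rose by 0.45 ± 0.12 from control to HS (adjusted P = 0.140) and by 0.78 ± 0.12 from control to HS + NMN (adjusted P = 0.0218). FBXO43, the APC/C inhibitor that holds metaphase II arrest, stood at 21.0 and 18.5, 30.6 and 35.3, and 43.4 and 36.1 FPKM and rose by 0.71 ± 0.15 from control to HS (adjusted P = 0.120) and by 0.97 ± 0.15 from control to HS + NMN (adjusted P = 0.0211) by limma. Both 3′ UTRs hold CPE matches, 3 in WEE2 and 1 in FBXO43, the last of WEE2 being 28 nt before the end and that of FBXO43 1274 nt before it.

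CCNB1, the cyclin B subunit of the kinase that drives meiotic entry into M phase, held 4 CPE matches, and its last is printed because it is the textbook target.
CCNB1, CPE, chr16:47348301-47348330, plus strand: aaaaatgagaaTTTTAATttatattcaaaa
It lies 74 nt before the end of the 3′ UTR, upstream of a hexamer at 23 nt. CCNB1 stood at 54.4 and 59.8 FPKM in control, 65.3 and 61.9 in HS, and 80.4 and 68.7 in HS + NMN oocytes. By limma it rose by 0.37 ± 0.13 from control to HS + NMN (adjusted P = 0.0845), its values in the other comparisons being 0.15 and 0.22, not called. MOS, the MAPK kinase kinase of oocytes, went the other way, from 844.9 and 932 FPKM in control to 770 and 644 in HS and 655 and 590 in HS + NMN oocytes, and fell by 0.51 from control to HS + NMN (adjusted P = 0.0554 by limma). The annotated 3′ UTR of MOS, of 464 nt, held 0 CPE matches. Its last hexamer lay 337 nt before the end, so whether the annotated end is the one used is not known. The listed loci of AURKA, WEE2 and MOS also hold other genes. So do those of CNOT7 (28 other genes) and CNOT6L (1), both called higher between HS + NMN and control. How fragments were shared within these loci was not tested.

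Across the whole table, genes with and without a CPE in the 3′ UTR had different median differences in all 3 comparisons. The 2895 tested genes with a CPE had a median log2 difference of 0.12 between HS and control, 0.13 between HS + NMN and HS, and 0.23 between HS + NMN and control. The 1139 genes without one had -0.20, -0.05 and -0.25. Between HS + NMN and control 35.1% of the genes with a CPE were called higher and 8.15% lower, against 8.25% and 34.5% of the genes without. The gap between the medians was 0.31, 0.18 and 0.48 as deposited and between 0.31 and 0.33, 0.15 and 0.18, and 0.47 and 0.49 over the scalings tried, although scaling to the sum without mitochondrially encoded genes turned the first median of the CPE genes to -0.14 and the second median of the others to 0.22.

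Genes without a CPE had shorter 3′ UTRs, with a median of 395 nt against 1510 nt, and fewer A and T bases, with 51.3% against 61.5%. Length and base content thus moved with the presence of a CPE, and their part was not tested beyond the splits given here. A second split, chosen after the data were seen, compared the 1032 genes with a CPE in the last 100 nt with the other 3002, whose median lengths were 1069 and 1061 nt. Between HS + NMN and HS, 12.1% of genes with such a CPE were called higher and 1.65% lower, against 5.996% and 7.50% of the others. Between HS and control 14.3% were called higher and 6.88% lower against 12.7% and 11.2%, with medians of 0.09 and 0.04, and in the tertile of highest A and T content the shares called higher were 25.1% and 24.9%. Between HS + NMN and control the values were 34.9% and 7.17% against 24.98% and 18.5%. Between HS + NMN and HS, within the shortest tertile of 3′ UTRs, they were 10.5% and 2.33% against 4.29% and 12.9%, and within the longest tertile 13.4% and 1.43% against 8.55% and 3.02%. Within the tertile of lowest A and T content they were 16.9% and 2.50% against 4.88% and 12.8%, and within the tertile of highest content 9.23% and 1.28% against 6.91% and 1.99%. Genes are not replicates, and no test was made of these shares.

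**Figure D5:**
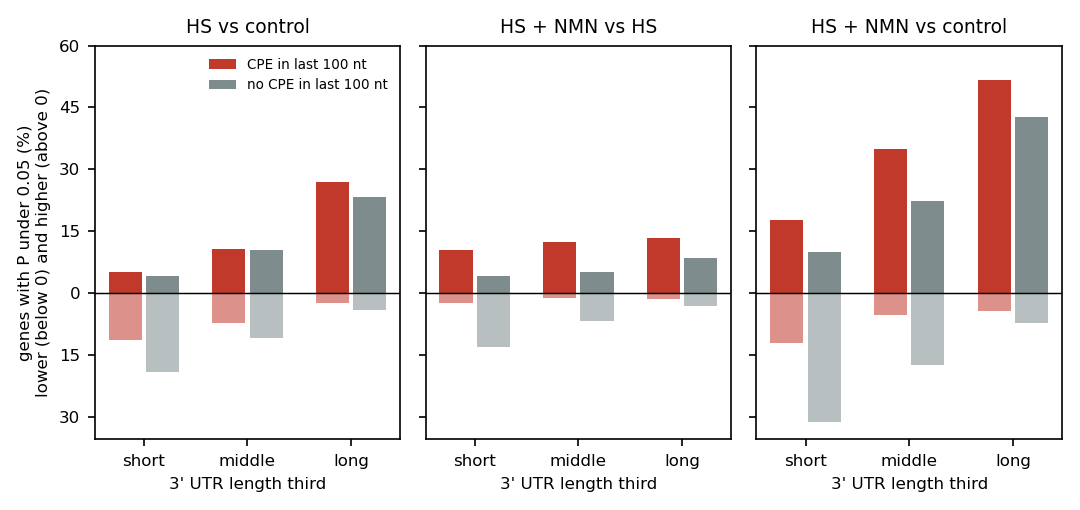
Bars above 0 give the percentage of genes called higher and paler bars below 0 the percentage called lower (vertical axis), for genes with a CPE in the last 100 nt of the 3′ UTR (red) and without (grey), by tertiles of 3′ UTR length and by comparison. In HS + NMN against HS the red bars reach 10.5%, 12.4% and 13.4% above 0, and the grey bars 4.29%, 5.17% and 8.55%.

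The members fell on both sides of this pattern. CPEB2 and CPEB4, with 26 and 18 matches, were called higher in HS + NMN than in control, and PABPC1L, with 0, was called lower. CPEB4 passed the filter of the main fit only through the heated groups. PABPC4, the 1 member with a CPE in the last 100 nt, was called higher between HS + NMN and HS. ZFP36L2, with 2 matches at high density, was called lower between HS + NMN and control, and PABPN1L, with 0, was called higher between HS + NMN and HS. CPEB3, with 6 matches, and PABPC1, with 1, were called in no comparison as deposited. Of the calls listed here, only that of ZFP36L2 passed after adjustment, in the main fit. The CPEB4 value is uncertain because of the genes that share its exonic bases.

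The genes whose pattern over the 6 samples was most like that of a member were found by Pearson correlation of log2(FPKM + 1), as a description over 6 points that share 3 groups. For CPEB4 they were TDRP (r = 0.997) and SHISA2 (r = 0.992), for PABPC4 NUP133 (r = 0.981) and HEATR6 (r = 0.980), for PABPN1L JAGN1 (r = 0.980) and NAT14 (r = 0.977), and for ZFP36L2 CDC25B (r = 0.987) and LOC106504276 (r = 0.986). CDC25B, a phosphatase that activates CDK1, stood at 3.01 and 3.07 FPKM in control, 1.78 and 2.69 in HS, and 0.755 and 1.73 in HS + NMN oocytes. Of 4713 genes, 87 had a correlation over 0.95 with CPEB4, 38 with ZFP36L2, 10 with PABPC4 and 9 with PABPN1L.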

How the data were processed

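Porcine oocytes from 3 groups of 2 samples were sequenced after mRNA was purified from total RNA. How it was purified is not stated, so more mRNA and a tail that is captured better cannot be told apart. The authors trimmed reads with cutadapt, aligned them with tophat2 and deposited 1 FPKM value per gene and sample. The submitters' processing notes name Cufflinks 2.2.1, Cuffnorm and Cuffdiff. The deposited lists of group values, fold changes and P-values were not used. All 29861 symbols matched the Sscrofa11.1 annotation, and 29855 genes lie inside their listed locus. The listed start and end were those of the annotation for 21210 genes, and most other listed loci were wider than the gene.

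FPKM values were log2-transformed after adding 1, genes averaging 1 FPKM or more were kept, and limma 3.58.1 (R 4.3.3) was fitted to all 6 samples with a mean-variance trend. On simulated data of 4713 genes for HS against control, with 200 changed, 92 of 100 genes changed by 1 and 97 of 100 changed by 2 on the log2 scale were called, as were 4.43% of unchanged genes. The simulated noise was independent between genes, without a shift of a whole sample, so these shares do not give the error rate in the deposited data. Changes smaller than 1 were not simulated. The members and lists were chosen with earlier results of these data known. All 9 members are named, with up to 3 genes of smallest P under 0.05 per list and comparison and the 2 genes most like each tested member. EIF4E1B, PAPD4, CCNB1, MOS, PUM2, CNOT7, CNOT6L, ZFP36, ZFP36L1 and the single marker genes were named after their values were seen. The longest coding transcript gave each 3′ UTR (at least 20 nt), copies were sought with blastn 2.17.0, and Python 3.11.15 with pandas 2.3.3 and matplotlib 3.10.9 did the rest. Alternatives were other pseudocounts, filters and scalings, the replicate block, only the compared groups, no trend, and leaving out each sample.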

Additional observations from a re-analysis of the deposited data

How the results depend on the processing

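The difference of ZFP36L2 between HS + NMN and control was called in all 18 alternatives. At an adjusted P under 0.05, 0, 0 and 1015 genes and 0, 0 and 1 members were called in HS against control, HS + NMN against HS and HS + NMN against control, where the counts at an unadjusted P were 1074, 641 and 1948 genes and 0, 2 and 2 members. In the same order of comparisons, a minimum mean of 0.1 FPKM gave 1865, 1161 and 3236 genes and 1, 2 and 4 members, the same with a pseudocount of 0.1 (chosen after seeing the data) 1800, 1276 and 3240 genes and 1, 2 and 4 members, no filter 2388, 1557 and 3700 genes and 1, 2 and 4 members, and a minimum of 5 FPKM 468, 266 and 791 genes and 0, 1 and 1 members. More or fewer genes were tested under these filters. At the minimum of 5 FPKM CPEB4 was left out, while PABPC4 was still tested in HS + NMN against HS (difference 0.32) but no longer called. Scaling to the FPKM sum without mitochondrially encoded genes gave 561, 271 and 788 genes and no called member in HS + NMN against HS, and it moved the median of all tested genes to -0.22 and 0.35 in the first 2 comparisons from 0.05 and 0.08. With LOC100513953 also left out (chosen after seeing the data) these medians were 0.02 and 0.12, and again 0 members were called in HS + NMN against HS. The share of calls that were higher was 55.7%, 52.6% and 62.0% as deposited, 6.06%, 67.9% and 35.4% under the first of these scalings, 40.6% in HS against control under the second, and 41.3% in HS + NMN against HS with quantile normalization. Quantile normalization called 1 member (CPEB4, difference 0.63) in HS against control and 0 in HS + NMN against HS, scaling to the same median called 1 in the latter, and so did a fit of only the compared groups.

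Some differences changed sign, none of them called. CPEB1 turned to -0.00229 (pseudocount of 0.1) and -0.0602 (mitochondrial scaling) between HS and control, to 0.0219 (quantile), 0.0111 (median) and 0.0392 (mitochondrial) between HS + NMN and HS, and to 0.0787 (quantile) and 0.0593 (median) between HS + NMN and control. PABPC1 turned to 0.0297 (quantile) and 0.0114 (median) between HS and control, and PABPN1L to -0.0376 (quantile) between HS + NMN and control. For the other changes the cause was not tested.

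Leaving out 1 sample at a time, where the lone sample left in a group is assumed to vary like the other groups, gave 648 to 1015, 327 to 701 and 1233 to 1941 genes and 0 to 1, 0 to 2 and 1 to 2 members. The lowest counts came without control replicate 2 (648) and without HS + NMN replicate 1 (327 and 1233), and without HS replicate 1 or HS + NMN replicate 2 there were 418 and 383 genes in HS + NMN against HS. CPEB1 ranged from -0.138 to 0.160, from -0.185 to 0.112 and from -0.0714 to 0.0203 in the 3 comparisons, PABPC1 from -0.0365 to 0.0324, from -0.00983 to 0.0626 and from -0.0119 to 0.0606, and CPEB2 from -0.0605 to 0.157 between HS + NMN and HS.

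Whether equally numbered samples were collected together is not stated. Across genes, their distances to the group mean correlated at -0.03, 0.008 and -0.01. Such values show little shift common to a replicate number, but they cannot tell whether the samples were paired. With the replicate block there were 937, 527 and 1815 genes and 1, 2 and 2 members, CPEB4 being called between HS and control, ZFP36L2 between HS + NMN and HS and PABPC4 no longer there.

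With 2 samples a group and unknown depth, the precision behind a single value cannot be given, and the added 1 FPKM shrinks the differences of genes below 1 FPKM.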
